A study of Mus musculus with 8 samples.

Results

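Immediate early genes are switched on within minutes of a stimulus, without new protein synthesis, and are used here together with genes that cells induce under stress. The set held 35 genes named by a fixed list: 9 of the AP-1 family, 4 Egr, 3 Nr4a, 4 Klf and 3 Dusp genes, and 12 others. All 35 had a probe set that was annotated to a single gene, 60 probe sets in all, out of 18193 genes measured. Where a gene had several probe sets, the one with the highest mean over all arrays stood for it, and the others were kept beside it.

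The tissues were the ductus arteriosus, the fetal vessel between the pulmonary artery and the descending aorta, and the matching stretch of aorta, each on 4 Affymetrix mouse arrays. The mice were untreated fetuses at day 19 of gestation, with the strain given as CD88 and the genotype as wild type for both tissues. Each array carried total RNA pooled over the pups of a single dam, 10 pups at most, so a replicate is a litter pool, and the labels do not say whether a ductus and an aorta pool of the same number came from the same litter. The labels name no sorting of cells, so each array reads the RNA of every cell in the vessel segments.

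Transcription of these genes is set largely by kinase cascades that act on factors already present, such as SRF with its Elk partners at serum response elements and CREB at cyclic AMP response elements. Fos and Jun proteins pair to form AP-1, the Egr genes encode zinc finger factors, and the Nr4a genes encode orphan nuclear receptors that respond strongly to cyclic AMP. Several members close the loop: the Dusp phosphatases inactivate MAP kinases, Zfp36 destabilises short-lived messages, Socs3 restrains cytokine signalling, and Ppp1r15a helps to restart translation after stress. In vessels, Klf2 and Klf4 are known as endothelial genes that respond to flow, and Klf4 also as a regulator of smooth muscle state.

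Values are robust multi-array averages (RMA) on the log2 scale, so a difference of 1 is 2-fold. Differences are given as ductus minus aorta with the standard error of the limma model, and the call threshold was an adjusted p of 0.05 (Benjamini-Hochberg over all 18193 genes). The first quartiles of the arrays lay between 2.74 and 2.86 and their medians between 4.36 and 4.42. Some arrays stood apart in markers of neighbouring tissue. The mean of 8 skeletal muscle markers was 6.74 on ductus replicate 3 and 3.96 to 4.31 on the other ductus arrays. The mean of 5 brown adipocyte markers was 8.94 on aorta replicate 3 and 5.75 to 7.74 on the other aorta arrays, and the mean of 7 thymocyte and T cell markers ran from 4.26 to 7.67 in the ductus and from 3.65 to 6.93 in the aorta.

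Promoter sequences are shown for the Nr4a genes, because all 3 had a higher mean in the ductus, and for Dusp1, which carries the same element and had equal means in both tissues. Each window runs from 250 bases before to 50 bases after the transcription start in RefSeq's GRCm38.p6 annotation, so it covers the proximal promoter and the first exon bases. It is printed 5′ to 3′ on the gene's strand, with every TGACG or its complement CGTCA, the core of the cyclic AMP response element, in capitals. The windows are chr15:101266596-101266895, plus strand, for Nr4a1; chr2:57123954-57124253, minus strand, for Nr4a2; chr4:48045055-48045354, plus strand, for Nr4a3; and chr17:26508423-26508722, minus strand, for Dusp1.
Nr4a1: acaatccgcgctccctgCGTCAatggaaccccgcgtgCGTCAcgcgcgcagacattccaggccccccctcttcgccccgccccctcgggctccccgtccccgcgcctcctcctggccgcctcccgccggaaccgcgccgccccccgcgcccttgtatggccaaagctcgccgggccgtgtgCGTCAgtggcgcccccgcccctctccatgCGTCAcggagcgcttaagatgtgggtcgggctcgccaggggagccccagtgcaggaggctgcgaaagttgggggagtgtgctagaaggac
Nr4a2: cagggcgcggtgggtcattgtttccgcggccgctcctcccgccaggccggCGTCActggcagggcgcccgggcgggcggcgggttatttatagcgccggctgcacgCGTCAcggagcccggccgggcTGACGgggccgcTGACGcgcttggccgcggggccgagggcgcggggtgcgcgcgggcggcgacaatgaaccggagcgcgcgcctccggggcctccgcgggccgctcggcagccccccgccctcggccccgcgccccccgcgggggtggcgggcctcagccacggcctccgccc
Nr4a3: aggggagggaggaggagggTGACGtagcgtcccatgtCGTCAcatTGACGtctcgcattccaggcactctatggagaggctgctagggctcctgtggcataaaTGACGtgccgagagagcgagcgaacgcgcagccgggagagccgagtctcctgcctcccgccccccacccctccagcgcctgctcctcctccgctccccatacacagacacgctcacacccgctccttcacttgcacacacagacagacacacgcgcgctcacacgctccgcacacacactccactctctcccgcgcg
Dusp1: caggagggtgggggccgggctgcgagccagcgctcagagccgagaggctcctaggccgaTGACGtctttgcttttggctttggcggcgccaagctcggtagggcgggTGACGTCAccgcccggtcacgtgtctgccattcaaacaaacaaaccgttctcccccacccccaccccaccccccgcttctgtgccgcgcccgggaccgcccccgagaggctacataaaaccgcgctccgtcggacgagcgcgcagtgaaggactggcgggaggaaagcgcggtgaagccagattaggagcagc

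Each of the 3 Nr4a windows held 4 such cores, against 3 in Dusp1, where 2 of them overlap in a full TGACGTCA. Of the 28 members with an entry in the promoter table, 16 had at least 1 core (57.1%), as did 23% of 27025 genes, and 69 genes (0.255%) had at least 4 in a window. The full element was in the windows of Btg2, Dusp1, Maff and Ppp1r15a, 14.3% of the matched members against 2.03% of genes, and none of these 4 was called. The SRF CArG box was found in Dusp5, Egr2 and Zfp36 (1.81% of genes), GCGTGGGCG, bound by Egr factors, in Maff (0.707% of genes), and TGACTCA, bound by AP-1, and AAAGGTCA, bound by Nr4a factors, in no member's window (5.95% and 1.7% of genes). All motifs were searched on both strands, overlapping matches were counted, and a match is a description of the letters, not a bound site. Bases outside the windows were not searched, so a window without a match does not show that the gene lacks the site. The Gadd45g window held none of these motifs. Arc, Egr1, Egr3, Fosl1, Ier2, Klf10 and Myc were not matched.

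Of the 35 members, 4 were higher in the ductus (Nr4a3, Gadd45g, Nr4a2 and Egr1) and 0 were higher in the aorta. Over all genes, 3.86% were called, 1.80% as higher in the ductus and 2.06% as higher in the aorta. At an unadjusted p under 0.05 the member counts were 7 and 2, where 6.94% and 9.19% of all genes passed. The median difference over the members was 0.032, against -0.032 over all genes, and 20 of 35 differences were positive. In 5 members (Nr4a3, Nr4a2, Gadd45g, Gadd45a and Egr1) every ductus value lay above every aorta value (5.23% of all genes), and in 1 member, Klf4, every ductus value lay below (6.06% of all genes). For 20 members the 95% interval of the difference lay within 1.5-fold in either direction. These include Junb and Fosl1, whose means lay below 2.86, the highest first quartile of an array, in both tissues. For genes at such levels a narrow interval does not show equal expression. This also limits Arc, Egr4 and Ier2, whose means of 3.03 to 3.90 lay below the lowest array median of 4.36. In these whole-vessel samples, fewer cells of a type and less RNA per cell cannot be told apart.

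**Figure D1:**
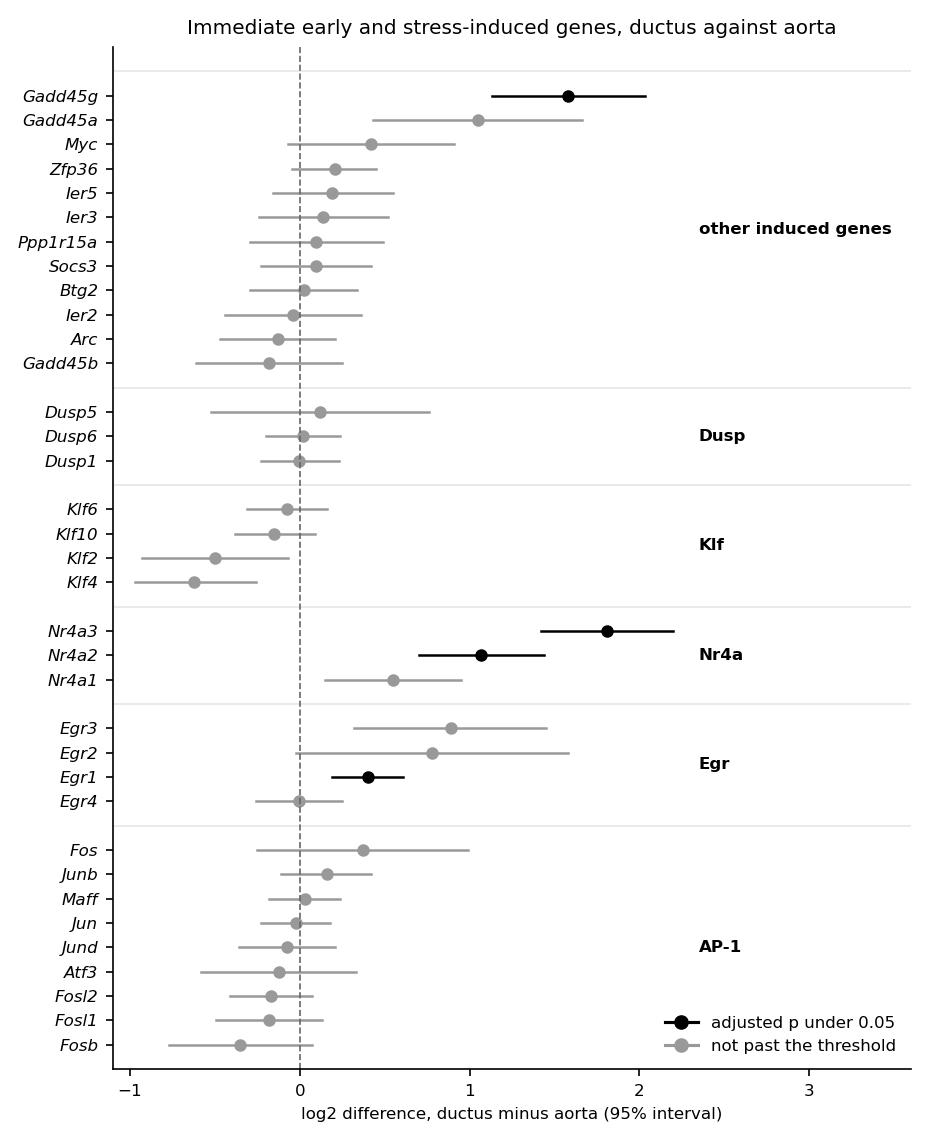
Log2 difference between ductus and aorta for each of the 35 genes, grouped by family, with the 95% interval of the limma model (4 arrays per tissue). Black marks the 4 genes past the threshold, which all lie to the right of 0, while the 9 AP-1 genes lie between -0.35 and 0.37.

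Of the 3 Nr4a receptors, 2 were called higher in the ductus, as were 1.80% of all genes. The difference of the other receptor was positive but did not pass. Nr4a3 (NOR-1) read 8.52, 8.46, 8.84 and 8.80 on ductus replicates 1 to 4, and 7.15, 6.74, 6.44 and 7.06 on aorta replicates 1 to 4. The ductus arrays sat close together and more than 1 log2 unit above the highest aorta array, so the groups did not overlap. The difference was 1.81 ± 0.173 (SE; 3.5-fold, limma adjusted p = 0.000467), and the call held on leaving out any 1 array (difference 1.67 to 1.91). It rested on 1 of 3 probe sets, and as the mean over probe sets the difference was 0.573 (adjusted p = 0.00891). The other 2 lay at means of 2.34 to 3.21, near the first quartile of the arrays, and differed by -0.17 and 0.08.

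Nr4a2 (Nurr1) read 7.56, 7.41, 7.76 and 7.62 in the ductus and 6.36, 6.52, 6.97 and 6.22 in the aorta. The groups again did not overlap, and aorta replicate 3, lowest for Nr4a3, was here the highest aorta array. The difference was 1.07 ± 0.166 (2.1-fold, limma adjusted p = 0.00709). Of 6 Nr4a2 probe sets, 4 were higher in the ductus and 2 lower, from -0.40 to 1.07. As a mean over probe sets the gene did not pass (0.305, adjusted p = 0.276). The 2 lower ones had means of 3.28 to 4.92. Of the higher ones, that with means of 6.19 and 5.46 differed by 0.73 without passing (limma adjusted p = 0.161). Those with means of 3.35 to 4.31 differed by 0.19 and 0.34. Nr4a1 (Nur77) read 4.68, 4.68, 4.25 and 4.18 in the ductus and 3.98, 3.87, 3.53 and 4.21 in the aorta. The ranges touched through aorta replicate 4, and the difference of 0.55 ± 0.178 did not pass (limma adjusted p = 0.144).

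Of the 4 Egr genes 1 was called higher in the ductus, as were 1.80% of all genes, with a small difference and little spread between arrays. Egr1, the best known of these zinc finger factors, read 11.16, 11.19, 11.04 and 11.18 in the ductus and 10.72, 10.82, 10.68 and 10.75 in the aorta. Both tissues had a spread of 0.15 between their lowest and highest array, and the groups did not overlap. The difference was 0.40 ± 0.0931 (1.32-fold, limma adjusted p = 0.0477). The call sat at the threshold: it was lost on leaving out any 1 of the 8 arrays (adjusted p of 0.0722 to 0.128), when each array was centred on its median (0.106) and when the arrays were quantile-normalized again (0.0531), while the difference stayed between 0.38 and 0.44.

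Egr2 varied more within the ductus than between tissues. It read 7.23, 7.32, 6.00 and 5.84 in the ductus and 6.01, 5.40, 5.64 and 6.21 in the aorta. Ductus replicates 1 and 2 were above every aorta array and replicates 3 and 4 lay inside the aorta range, so the difference of 0.78 ± 0.356 did not pass (limma adjusted p = 0.322). The second Egr2 probe set showed the same split into pairs, with 7.25 and 7.05 against 6.03 and 5.51 in the ductus. Egr3 read 4.48, 5.35, 4.50 and 4.59 in the ductus and 3.64, 3.58, 3.67 and 4.49 in the aorta. Its difference of 0.89 ± 0.253 did not pass (adjusted p = 0.0994), and passed without aorta replicate 4 (1.10, adjusted p = 0.0325). The second Egr3 probe set went the other way (-0.30), at means of 3.25 (ductus) and 3.55 (aorta). Egr4, the last of the family, had near equal means of 3.45 ± 0.171 (ductus, SD, n = 4) and 3.46 ± 0.0781 (aorta, SD, n = 4). Both lay below the lowest array median of 4.36, so equal expression is not shown.

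**Figure D2:**
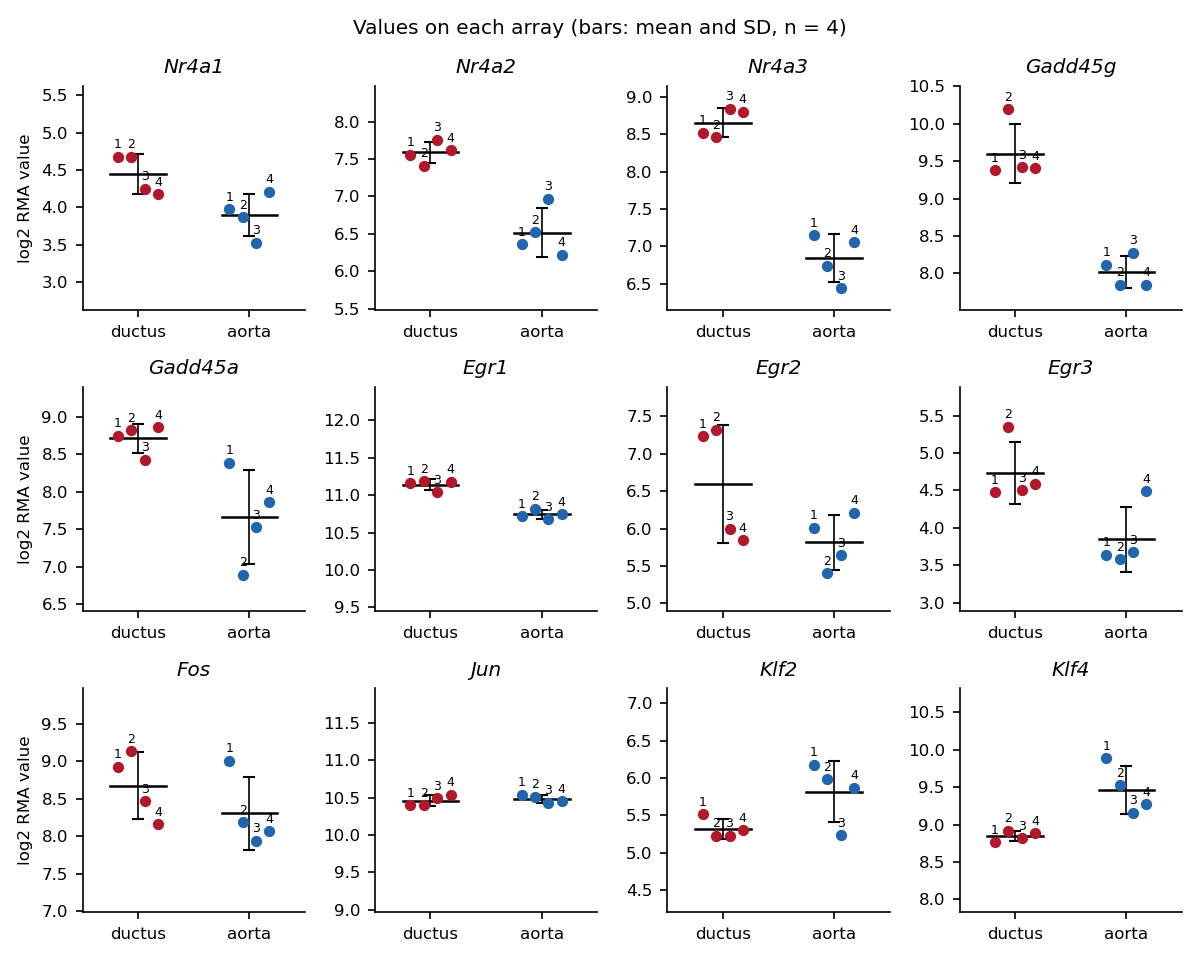
Log2 RMA values of 12 genes on each array (points, numbered by replicate), with the mean and SD of 4 arrays per tissue; every panel spans 3 log2 units. Nr4a2, Nr4a3, Gadd45g, Gadd45a and Egr1 have all ductus points above all aorta points, Klf4 has them all below, and Egr2 splits within the ductus.

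The AP-1 group showed 0 of 9 genes called by limma in either direction and 0 at an unadjusted p under 0.05. The limma adjusted p-values ran from 0.407 to 0.934. A group of 9 genes would often show no call where 3.86% of all genes are called. Fos read 8.93, 9.14, 8.47 and 8.16 in the ductus and 9.01, 8.19, 7.94 and 8.07 in the aorta. The ranges overlapped almost fully, aorta replicate 1 standing with the 2 highest ductus arrays, and the difference was 0.37 ± 0.275 with a 95% interval of -0.25 to 0.99. Jun, the partner of Fos, had a range of 0.15 in the ductus and 0.12 in the aorta: the ductus arrays read 10.40, 10.40, 10.49 and 10.54, those of the aorta 10.54, 10.51, 10.43 and 10.45. Its interval ran from -0.23 to 0.18.

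Fosb, which can replace Fos in the dimer, read 4.68, 4.69, 4.23 and 3.93 in the ductus and 4.85, 4.72, 4.89 and 4.46 in the aorta. Its lowest values were on ductus replicates 3 and 4, and the difference was -0.35 ± 0.187. Atf3, a stress-induced partner of Jun proteins, read 5.20, 5.40, 5.05 and 4.50 in the ductus and 5.35, 5.39, 5.01 and 4.88 in the aorta, a difference of -0.12 ± 0.203. In both tissues replicate 4 was its lowest array. Junb read 2.78, 2.80, 3.03 and 2.70 in the ductus and 2.59, 2.60, 2.89 and 2.60 in the aorta. Junb and Fosl1 lay below 2.86, the highest first quartile of an array, in the mean of both tissues, so their transcripts are not shown to be above background. Fosl2, Jund and Maff differed by -0.17, -0.074 and 0.032.

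Limma called 0 of the 4 Klf genes. With 3.86% of all genes called, a group of this size would often show no call. Klf2 and Klf4 had a lower mean in the ductus at an unadjusted p under 0.05, which 9.19% of all genes reached in that direction. Klf4 read 8.76, 8.92, 8.82 and 8.88 in the ductus and 9.89, 9.53, 9.16 and 9.27 in the aorta. The ductus values formed a tight cluster under all aorta values, and the difference of -0.62 ± 0.158 missed the threshold (limma adjusted p = 0.0675). Its second probe set differed by -0.67. The gene passed as the mean of both probe sets (-0.644, adjusted p = 0.037), among genes with a mean above log2 6 (0.0445), with a trended robust prior (0.0316) and without aorta replicate 3 (0.0415), and over all alternatives its adjusted p ran from 0.0316 to 0.164.

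Klf2 read 5.52, 5.23, 5.23 and 5.30 in the ductus and 6.18, 5.98, 5.24 and 5.87 in the aorta. Aorta replicate 3 lay within the ductus range and the other 3 aorta arrays above it. The difference was -0.50 ± 0.191 (limma adjusted p = 0.227), or -0.691 without that array (adjusted p = 0.0242). Klf6 and Klf10, broadly induced members of the family, differed by -0.073 ± 0.103 and -0.15 ± 0.106.

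Endothelial and mesothelial markers had a lower mean in the ductus, as did Klf2 and Klf4. Of 10 endothelial markers, 3 were called higher in the aorta, as were 2.06% of all genes, and 0 in the ductus. Their mean was 7.05 to 7.34 over the ductus arrays and 7.47 to 7.95 over the aorta arrays. Only Erg among them went the other way (0.73, limma adjusted p = 0.0595), with every ductus value above every aorta value. Of 10 mesothelial markers, 7 were called higher in the aorta, with means of 6.77 to 7.36 and 7.98 to 9.28. None of these 20 markers lay below 2.86 in either tissue. Within the aorta both marker means were highest on replicate 1 and lowest on replicate 3, the order also seen at the ends of the Klf2 and Klf4 values. Dusp1, Dusp5 and Dusp6 shared these ends. Within the ductus both marker means were highest on replicate 3 (7.34 and 7.36), where Klf2 read 5.23 and Klf4 8.82. There Klf2 was highest on replicate 1 (5.52) and Klf4 on replicate 2 (8.92). The part of these cells in the Klf values was not tested.

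Of the 3 Dusp phosphatases limma called 0, and 0 were at an unadjusted p under 0.05. With 3.86% of all genes called, so small a group would often show no call. Dusp1, which acts on p38, JNK and ERK, read 11.04, 11.15, 11.18 and 11.03 in the ductus and 11.21, 11.18, 10.96 and 11.07 in the aorta, a difference of -0.0029 ± 0.102 with an interval of -0.23 to 0.23. Dusp6, the ERK phosphatase of the cytoplasm, differed by 0.021 ± 0.0967. Dusp5, its nuclear counterpart, was even in the ductus (8.47 to 8.78) and uneven in the aorta, at 9.18, 8.17, 7.72 and 8.90. Its mean difference was 0.12 ± 0.285 with an interval of -0.52 to 0.76, and the aorta arrays stood on both sides of the ductus range.

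The growth arrest genes of the Gadd45 family differed from each other. Gadd45g, which binds MAP3K4 and cell cycle regulators, read 9.38, 10.20, 9.42 and 9.41 in the ductus and 8.12, 7.85, 8.28 and 7.85 in the aorta. The groups did not overlap, and ductus replicate 2 stood above the other 3 ductus arrays. The difference was 1.58 ± 0.199 (2.99-fold, limma adjusted p = 0.00219), and the gene was called in all 18 alternatives, with differences from 1.38 to 1.66. Gadd45a, a target of p53, read 8.75, 8.82, 8.43 and 8.86 in the ductus and 8.39, 6.89, 7.53 and 7.86 in the aorta. Its groups did not overlap, but the aorta spanned 1.50 log2 units, and the difference of 1.05 ± 0.275 (2.07-fold) did not pass (limma adjusted p = 0.0754). It passed with array weights (0.0433), with a trended robust prior (0.0434) and without aorta replicate 1 (0.0192). Gadd45b, induced by TGF-beta and NF-kappaB, differed by -0.18 ± 0.191, and its 3 probe sets were all slightly lower in the ductus.

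The remaining 9 members did not pass, with adjusted p-values from 0.39 to 0.953. Myc, the growth-promoting bHLH factor, read 5.44, 4.57, 4.37 and 5.06 in the ductus and 4.50, 4.60, 4.34 and 4.31 in the aorta, 2 ductus arrays standing above the rest (difference 0.42 ± 0.219). Zfp36 differed by 0.21 ± 0.111, Ier5 by 0.19 ± 0.157, Ier3 by 0.14 ± 0.169 and Ppp1r15a by 0.098 ± 0.172. Socs3, Btg2 and Ier2 lay within 0.1 of equal, at 0.094, 0.026 and -0.038, and Arc, a synaptic immediate early gene, differed by -0.13 ± 0.15. Ier2 (means of 3.86 and 3.90) and Arc (3.03 and 3.17) lay below the lowest array median of 4.36. For these genes equal expression is not shown. Ier3 and Ppp1r15a were even in the ductus, with ranges of 0.094 and 0.12, and spread over 0.83 and 0.81 in the aorta, where replicate 3 was lowest for both.

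**Figure D3:**
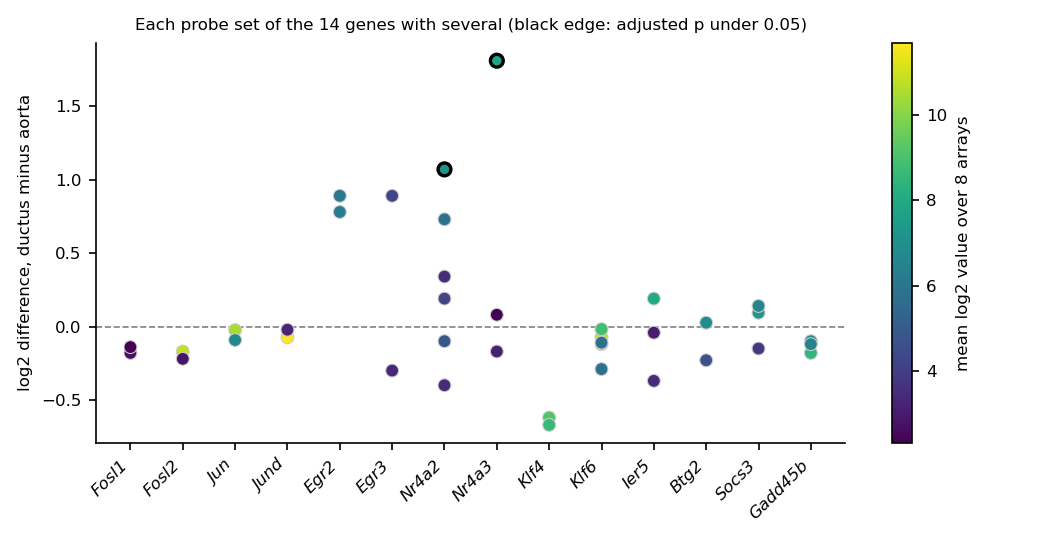
Log2 difference (ductus minus aorta) of every probe set of the 14 genes that had several, coloured by the probe set's mean log2 value over 8 arrays. Of the 60 member probe sets, 3 passed when all 34945 probe sets were tested; the Nr4a2 and Nr4a3 points with a black edge are 2 of them, and the other probe sets of these 2 genes lie from -0.40 to 0.73.

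Tested probe set by probe set, with 2.86% of all 34945 called, 3 of the members' 60 passed: those of Nr4a3, Nr4a2 and Gadd45g. In 8 of the 14 genes with several probe sets all went the same way. Egr2, Klf4, Klf6 and Gadd45b were among these 8.

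Within each tissue, the members' typical spread was near that of other genes, and many members were highest or lowest on the same array. The median range over 4 arrays was 0.35 in the ductus and 0.44 in the aorta for the members, and 0.42 and 0.47 for all genes. In the aorta, 18 of 35 members had their highest value on replicate 1 (22.2% of all genes did) and 18 had their lowest on replicate 3 (25.7% of all genes). All 4 Klf and all 3 Dusp genes were highest on aorta replicate 1, and the 3 Dusp genes were lowest on replicate 3. The median deviation from the aorta mean was 0.11 on replicate 1 and -0.14 on replicate 3, where that over all genes was -0.03 and -0.01. Aorta replicate 1 held the highest mesothelial mean (9.28) and replicate 3 the lowest (7.98) and the highest brown adipocyte mean (8.94). In the ductus, 13 of 35 members had their lowest value on replicate 3 (22.1% of all genes did). On that array 9 members lay above their ductus mean (53% of all genes). It held the highest ductus mesothelial mean (7.36, beside 7.34 on replicate 1) and the highest skeletal muscle mean (6.74). The part of these tissues was not tested.

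The arrays that were high together differed between members. In the ductus, for 9 of 35 members (25.7%) the 2 highest arrays were replicates 1 and 2, as for 13.2% of all genes: Fos, Fosb, Jund, Atf3, Egr2, Nr4a1, Dusp5, Ier3 and Arc. For 8 members (22.9%, against 17.9% of all genes) they were replicates 2 and 4, Egr1, Egr3, Klf4 and Gadd45a among them. For 4 members, Nr4a2, Nr4a3, Jun and Ier2 (11.4%, against 15.8% of all genes), they were replicates 3 and 4. In the aorta, for 14 of 35 members (40%) replicates 1 and 2 were the 2 highest, as for 14.2% of all genes. The mean of the brown adipocyte markers was 7.41 and 7.62 on ductus replicates 1 and 2 and 6.57 and 6.55 on replicates 3 and 4. Cidea, Adipoq, Fabp4 and Cebpa split in this way in the ductus, while Ucp1 did not (3.40, 3.72, 3.49 and 3.61). In the aorta the mean of these markers was 5.75 and 6.51 on replicates 1 and 2 and 8.94 and 7.74 on replicates 3 and 4. Their part was not tested, and 4 arrays per tissue are too few for a correlation.

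**Figure D4:**
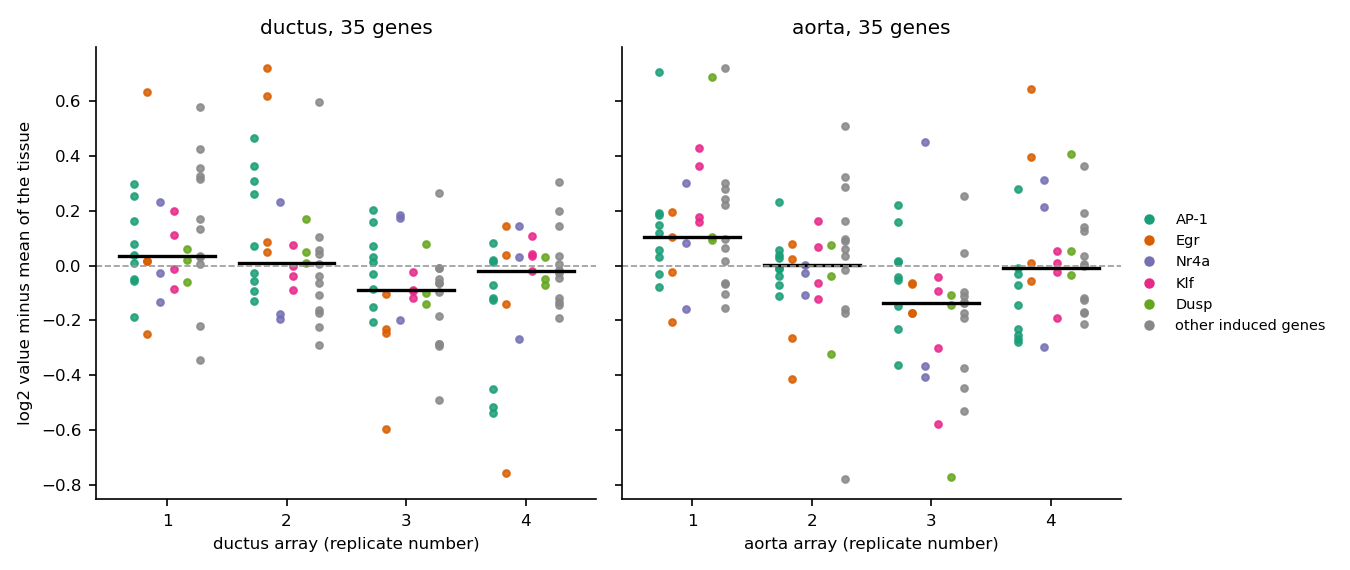
Log2 value of each of the 35 genes minus its mean in that tissue, by array, coloured by family; the black line is the median over the genes. On aorta replicate 3 most points lie below 0 (7 of 35 above) and on aorta replicate 1 most lie above (26 of 35), while in the ductus Egr2 and Egr3 reach the highest points.

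Other genes of the same pathways were read from lists chosen beside the members, with earlier results of these data known. Of 29 further immediate early genes limma called 8 towards the ductus and 0 towards the aorta, beside 1.80% and 2.06% of all genes. Their median difference was 0.18. Those with the smallest adjusted p were F3, tissue factor (6.95-fold, limma adjusted p = 1.3e-05), Ereg, an EGF receptor ligand (2.92-fold, 0.00117), Thbs1, thrombospondin 1 (3.54-fold, 0.00709), and Ccn1, a matricellular protein (1.66-fold, 0.00862). Each array reads whole vessel segments, so the expression of these genes in smooth muscle was not measured apart from other cells. Of 9 smooth muscle markers 5 were called higher in the ductus, as were 1.80% of all genes. These markers had means of 9.79 to 10.35 over the ductus arrays and 8.66 to 9.26 over the aorta arrays. Their part in the Nr4a, Gadd45g and list values was not tested. Over the ductus arrays the smooth muscle mean peaked on replicate 3 (10.35) and had its minimum on replicate 2 (9.79), and so did Nr4a2 and Nr4a3. Gadd45g went the other way, with its top ductus value (10.20) on replicate 2. Nr4a1 read 4.68 on ductus replicate 2 and 4.25 on replicate 3. Ductus replicate 3 also carried the skeletal muscle mean of 6.74. Over the aorta arrays the smooth muscle mean had its minimum on replicate 1 (8.66), where Nr4a3 was highest and Nr4a2 second lowest.

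The remaining lists are described by counts, beside the 3.86% of all genes called and the 6.94% and 9.19% at an unadjusted p under 0.05 towards the ductus and the aorta. In lists of this size a count of 0 is near that background. Of 23 kinases and factors of the ERK, p38, JNK, SRF, CREB and MEF2 routes, limma called 0, with 0 and 2 at an unadjusted p under 0.05 in the ductus and the aorta direction. Among 15 other AP-1 and bZIP partners it called 0 (0 and 1 unadjusted), and among 10 other Dusp genes 0 (1 and 3 unadjusted). Of 10 other Klf genes 1 was higher in the aorta, Klf15, a metabolic regulator (2.21-fold, adjusted p = 0.0116). Of 14 relatives of the feedback genes 1 was higher in the aorta, Nab1, a corepressor of Egr factors (1.74-fold, adjusted p = 0.00765). Limma also called 0 of 13 heat shock genes (1 and 0 unadjusted) and 0 of 13 genes of the integrated stress, unfolded protein and p53 responses (0 and 1 unadjusted).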

How the data were processed

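Total RNA was measured on 8 Affymetrix arrays, 4 per tissue. The authors deposited RMA values in log2 units, made with Partek 6.6 and RMA per the submitters' processing notes, which state neither order nor settings. The labels give Trizol extraction and the series' design text names a Versagene kit for homogenization. Of 45101 probe sets, 64 controls were left out, 9160 were unnamed in the platform annotation used, 932 carried several symbols and 34945 carried 1. Gene IDs gave current symbols for 34741, and the platform's symbol was used for 204.

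Differences were fitted on all 18193 genes with limma 3.58.1 (lmFit, eBayes, two-sided, without covariates; R 4.3.3) and adjusted by Benjamini-Hochberg. No low-value filter was applied. The spread behind each p-value is that between litter pools, and precision is limited by 4 arrays a tissue. The fit was tested on simulated data. Every member is named. Members called, and Fos, Fosb, Jun, Junb, Egr1, Nr4a1, Nr4a2, Nr4a3, Klf2, Klf4, Dusp1 and Atf3, were to be given by array, and from each gene list up to 4 called genes. The array values of Egr2, Egr3, Gadd45a, Dusp5 and Myc were added after seeing them. The members and lists were chosen with earlier results of these data known. Alternatives covered scaling, low-value filters, the probe set, the prior, weights, a replicate block, the threshold and leaving out each array.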

Additional observations from a re-analysis of the deposited data

Results flagged for a closer look

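In 6 of 70 sets of 4 arrays (35 genes in each tissue), a single array stood further from the rest than the 95% critical value of Dixon's gap test allows, which chance gives in about 1 in 20 sets. Egr3 was the gene with such an array in both tissues, at 5.35 on ductus replicate 2 (others 4.48 to 4.59) and at 4.49 on aorta replicate 4 (others 3.58 to 3.67). Gadd45g was at 10.20 on ductus replicate 2, with the others at 9.38 to 9.42. Ier5 and Gadd45b were both high on aorta replicate 2, at 8.19 (others 7.73 to 7.80) and 9.06 (others 8.34 to 8.45). Junb was at 2.89 on aorta replicate 3 (others 2.59 to 2.60), a level not shown to be above background. All 6 were the highest array of their set.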

How the results depend on the processing

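The count of members higher in the ductus was 4, and 3 to 4 on leaving out 1 array, 3 with the replicate block and 3 to 6 over all alternatives. Nr4a3 and Gadd45g were called in all 18 alternatives, Nr4a2 in 17 of 18. The count higher in the aorta, 0, became 1 among genes with a mean above log2 6, with the mean over probe sets, with the trended robust prior and at an adjusted p under 0.1 (Klf4 each time), and was 0 to 2 on leaving out 1 array, 2 (Klf2 and Klf4) without aorta replicate 3. Fewer members were tested under the low-value filters, 28 above the 40th percentile and 23 above log2 6. The median difference, 0.032, ran from -0.03 to 0.098. Of 611 pairs of a member and an alternative, 588 kept their side of the threshold, 14 lost a call (13 of them Egr1) and 9 gained one, and no called direction reversed. Over all genes, 702 calls became 403 with the replicate block, 304 at 0.01, 1157 at 0.1 and 443 to 705 on leaving out 1 array. The replicate numbers were not used as pairs, and the labels do not say whether they mark a shared litter. Same-numbered ductus and aorta arrays did not deviate together (correlations of -0.23 to -0.07 over 18193 genes). No ductus array correlated best with its own number. These correlations cannot show that the pools came from different litters, because neighbouring tissue also differed between arrays. The block moved Egr1 to a limma adjusted p of 0.174 and lost no other member's call. Levels near 2.86 carry little signal over background, which limits Junb and Fosl1. Arc, Egr4 and Ier2, with means below the lowest array median of 4.36, are also limited by low signal.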
